A study of Mus musculus with 27 samples.

Results

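Nodal and the genes that transmit or restrain its signal were followed through a hydrogen peroxide time course in mouse embryonic stem cells. The group holds 7 genes of the 38352 in the deposited tables, taken by symbol: the ligand Nodal, its co-receptor Tdgf1 (Cripto), the receptors Acvr1b and Acvr2b, the nuclear partner Foxh1 and the secreted antagonists Lefty1 and Lefty2. None of the 7 symbols recurred, and all 7 passed the filter on low values. The cells were wild-type E14Tg2a, a feeder-independent line, grown on gelatin with serum, LIF and 2i, a pair of kinase inhibitors that block MEK and GSK3. Treated cultures received 500 µM peroxide for 30 min and then conditioned medium taken from cultures that had not been treated. Poly(A) RNA was sequenced from treated cells at 0.5, 2, 4, 6, 8, 10 and 24 h and from untreated cells at 0 and 24 h, with 3 replicates from independent time courses in each of the 9 groups. The 0.5 h samples were taken directly after the exposure, before the medium was replaced. The micromolar unit is that of the treatment protocol, whereas the series' design text gives 500 mM, and which is right was not settled here. No group had the medium replaced without peroxide, so from 2 h on the effects of peroxide and of the new medium cannot be told apart, and time in culture was matched to an untreated group only at 24 h.

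Nodal is a secreted TGF-beta family ligand. It binds activin receptors together with the EGF-CFC co-receptor Cripto, the receptors phosphorylate Smad2 and Smad3, and these enter the nucleus with Smad4, where Foxh1 is among their DNA-binding partners. Lefty1 and Lefty2 are themselves transcriptional targets of the pathway and block Nodal and its co-receptor outside the cell, which closes a negative feedback loop. In the embryo the pathway patterns the epiblast and specifies mesoderm and endoderm, and in embryonic stem cells in culture it is active at a basal level.

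Against untreated 0 h cells, Lefty1, Lefty2 and Tdgf1 fell to their lowest levels at 6 h. Both Lefty genes were then above the starting level at 10 h, and at 24 h they were lower in treated than in untreated cells of the same age. Nodal mRNA was slightly lower at 4 and 6 h (log2 changes of -0.26 and -0.25, both calls near the threshold). In treated cells it rose between 10 and 24 h (0.56). Acvr1b, the type I activin receptor, was higher from 4 to 8 h, and Foxh1 and Acvr2b did not pass the test at any time. Levels are in FPKM, fragments scaled to transcript length and library size, and changes are differences of mean log2(FPKM + 1). The limma test was run over 13614 genes, with a Benjamini-Hochberg adjusted p below 0.05 as the threshold. In bulk RNA, fewer cells that express a gene and less RNA in each cell cannot be told apart.

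At 0.5 h none of the 7 genes passed (0.0808% of all genes tested did), and 1 of them, Tdgf1, had an unadjusted p below 0.05 (9.93% of all genes). Tdgf1 alone was lower at 2 h (0.566% of all genes were). At 4 h, 4 of the 7 were lower (12.1% of all genes) and 1 was higher (14.2% of all genes), and the counts were the same at 6 h (20% of all genes lower and 22.3% higher). At 8 h, 2 were higher (29.2% of all genes) and 1 was lower (11.6% of all genes), as at 10 h (22.2% of all genes higher and 9.43% lower). These 6 comparisons share the same 3 untreated 0 h libraries, so their values stand side by side and are not independent of each other. At 24 h against untreated 24 h cells, 2 of the 7 were lower (4.28% of all genes) and none was higher. Between the untreated groups, 2 of the 7 were higher at 24 h than at 0 h (0.426% of all genes). The median log2 change of the 7 was -0.26 at 4 h and -0.25 at 6 h, beside 0.01 and 0.00 over all genes.

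**Figure D1:**
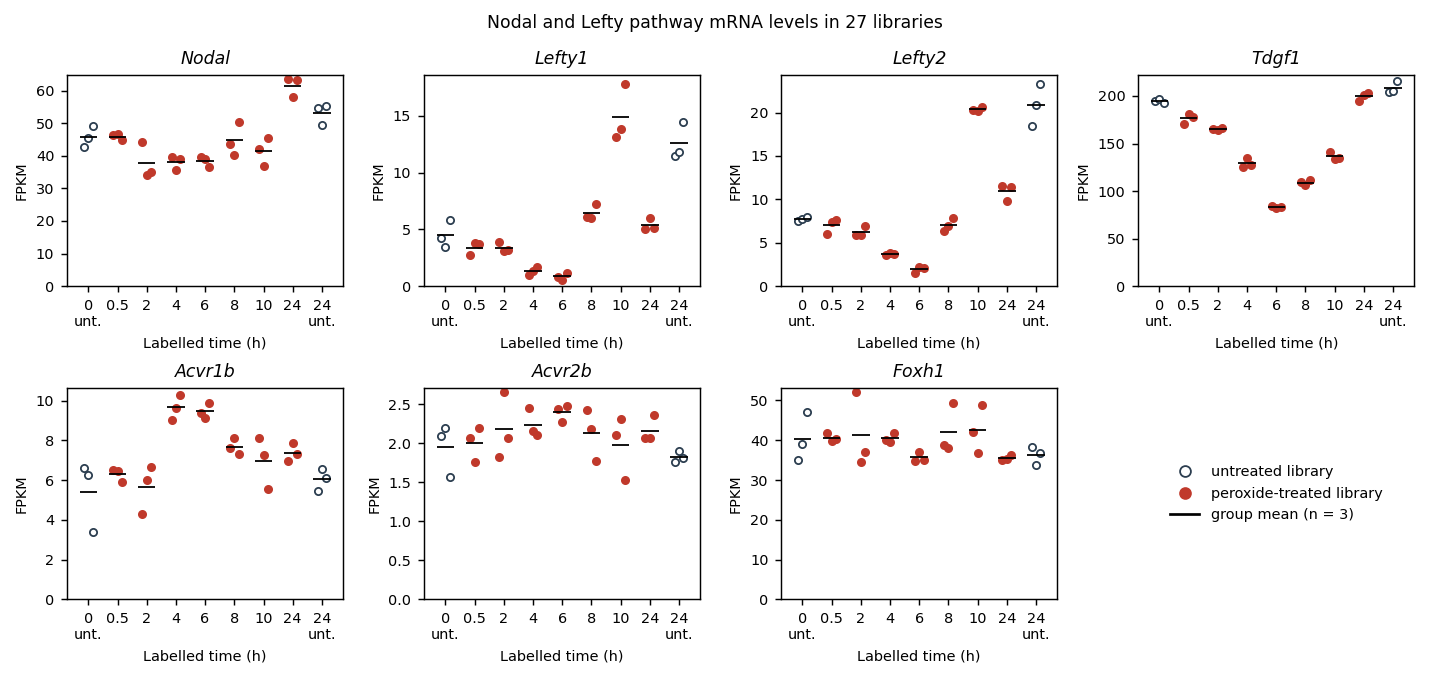
Level of each gene in FPKM (linear axis from 0) in every library, by labelled time in hours. Open points are untreated and filled points peroxide-treated libraries, and bars are means of 3. Lefty1 and Lefty2 are lowest at 6 h and high at 10 h and in untreated 24 h cells, Tdgf1 has its minimum at 6 h, and Foxh1 and Acvr2b have the narrowest range of group means relative to their level.

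The libraries had summed levels of 294485 to 395760 FPKM and 11516 to 12607 genes at 1 FPKM or more, and their depth relative to untreated 0 h replicate 1, read from the lowest values, was 0.98 to 1.10. The 8 embryonic stem cell markers summed to 2254 to 4073 FPKM in every library, against 0.69 to 2.11 for 7 fibroblast, 1.17 to 3.12 for 7 primitive endoderm and 17.5 to 47.3 for 7 trophectoderm markers. Untreated 0 h replicate 3, 2 h replicate 1, 8 h replicate 3 and 10 h replicate 3 stood apart by their trend with GC content, with slopes of 0.376, 0.337, 0.198 and 0.21 log2 units per 10 points of GC, although the 4 h libraries (0.138 to 0.215) and untreated 24 h replicate 1 (0.185) were also raised. Hepatocyte genes differed between libraries. The 12 markers, all in the tables, with Apoc3 listed at 0 in 17 libraries and Alb in 6, summed to 47.0 to 63.6 FPKM at 0.5 h, 42.0 to 56.2 in untreated 24 h cells, 58.6 and 52.2 in 8 h replicates 1 and 2 and 45.7 in 6 h replicate 3. Elsewhere that sum was 1.33 to 7.20 FPKM. The 6 astrocyte markers summed to 2.86 to 3.85 FPKM in untreated 0 h cells and 3.66 to 15.4 in the other groups, and the part of these genes in the results was not tested beyond the values given beside them.

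Before treatment the levels, which are per length and so comparable between genes, ran from Tdgf1 (195 ± 1.96 FPKM, SD, n = 3) through Nodal (45.8 ± 3.27), Foxh1 (40.3 ± 6.12), Lefty2 (7.74 ± 0.251), Acvr1b (5.42 ± 1.78) and Lefty1 (4.48 ± 1.20) to Acvr2b (1.95 ± 0.338). The libraries of Nodal and Foxh1 overlapped, as did those of Acvr1b and Lefty1. Over the 9 group means the highest was 17.3 times the lowest for Lefty1 and 10.5 times for Lefty2. The same ratio was 2.5 for Tdgf1, 1.78 for Acvr1b, 1.63 for Nodal, 1.32 for Acvr2b and 1.2 for Foxh1.

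Nodal, the ligand, lies on the plus strand at chr10:61417972-61425338 (GRCm38, GENCODE M21) in 3 exons. Its level was 42.7, 45.6 and 49.2 FPKM in untreated 0 h replicates 1, 2 and 3. It was 39.7, 35.6 and 38.9 at 4 h and 39.7, 38.9 and 36.6 at 6 h. All 6 of these treated libraries lay below all 3 untreated ones. The log2 change of FPKM + 1 was -0.26 (SE 0.10, limma adjusted p = 0.0498) at 4 h and -0.25 (SE 0.10, adjusted p = 0.0421) at 6 h. The 4 h call was lost in 24 of 40 alternative settings, whose adjusted p ran from 0.000117 to 0.201, and the 6 h call in 7 of 40.

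At 10 h, when both antagonists were high, Nodal stood at 42.1, 37.0 and 45.5 FPKM, which overlapped untreated 0 h cells. The treated 24 h libraries were at 63.5, 57.9 and 63.2 FPKM and the untreated 24 h libraries at 54.5, 49.5 and 55.2, without overlap. That difference of 0.21 (SE 0.10) did not pass, with an adjusted p of 0.14, and its 95% interval ran from 0.01 to 0.41. From 10 to 24 h after treatment, where 2 of the 7 genes were higher (8.18% of all genes) and 2 lower (11.2% of all genes), Nodal rose by 0.56 (SE 0.10, adjusted p = 0.000221). The 10 h and 24 h groups also differ in time in culture. Group means of the ligand mRNA ran from 37.8 FPKM at 2 h to 61.5 FPKM in treated cells at 24 h.

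Tdgf1, which encodes the membrane-anchored co-receptor Cripto, lies on the minus strand at chr9:110939603-110946158 in 6 exons. Of the 4 genes in the RefSeq promoter table Tdgf1 had the widest span of group means, and the 250 bases upstream of its start are shown beside those of its ligand, 5′ to 3′ on the gene's strand (RefSeq, GRCm38.p6). The Tdgf1 window is chr9:110946159-110946408, minus strand, and the Nodal window is chr10:61417722-61417971, plus strand. Capitals mark GGGCGTGG, a GC box form bound by Klf and Sp factors.
Tdgf1: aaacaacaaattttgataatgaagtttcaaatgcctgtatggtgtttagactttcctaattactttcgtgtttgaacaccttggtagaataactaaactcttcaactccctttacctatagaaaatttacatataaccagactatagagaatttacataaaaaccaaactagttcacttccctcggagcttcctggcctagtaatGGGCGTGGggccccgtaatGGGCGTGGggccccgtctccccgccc
Nodal: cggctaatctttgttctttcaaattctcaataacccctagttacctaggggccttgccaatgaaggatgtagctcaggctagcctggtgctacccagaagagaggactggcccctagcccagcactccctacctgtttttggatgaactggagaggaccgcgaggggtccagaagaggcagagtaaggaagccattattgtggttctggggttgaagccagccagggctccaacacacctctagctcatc

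The capitals in the Tdgf1 window begin 45 and 26 bases before the start and belong to a direct repeat. GGGCGTGG, searched on both strands and chosen after the sequence was seen, is in 4.79% of 32851 RefSeq promoter windows of this length. The Foxh1 cores AATCCACA (0.72% of windows) and AATACACA (0.89%), the Smad element CAGACA (17.13%), the Smad GC-rich site GGCGCC (9.59%), the TATA form TATAAA (12.37%) and the octamer ATTTGCAT (1.6%, also chosen after the sequence was seen) were searched on both strands as well. None of these letters is in the windows of Tdgf1, Nodal, Acvr1b or Acvr2b. A match or its absence describes these 250 bases only.

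Tdgf1 stood at 195, 197 and 193 FPKM in untreated 0 h replicates 1, 2 and 3. It was 165, 164 and 166 at 2 h, 125, 135 and 128 at 4 h and 84.2, 82.6 and 83.6 at 6 h. Each of these groups lay wholly below the one before. The log2 change was -0.24 (SE 0.05, adjusted p = 0.00983) at 2 h, a call that was lost without 2 h replicate 2 (adjusted p = 0.0511) and with only the compared libraries in the fit, and whose adjusted p over 40 alternatives ran from 0.000241 to 1. It was -0.59 (adjusted p = 4.37e-09) at 4 h and -1.21 (SE 0.05, adjusted p = 3.92e-14) at 6 h, so that the 6 h mean was 0.428 of the untreated 0 h mean.

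Recovery of Tdgf1 was gradual. Its libraries held 109, 106 and 111 FPKM at 8 h and 141, 134 and 135 at 10 h, still below every untreated 0 h library, with log2 changes of -0.83 (adjusted p = 4.09e-11) and -0.51 (adjusted p = 6.13e-08). The step from 6 to 8 h was +0.38 (adjusted p = 3.6e-06) and that from 8 to 10 h was +0.32 (adjusted p = 0.000262). With only the compared libraries in the fit, the 10 h change (adjusted p = 0.0602, over a range down to 1.12e-09) and the step from 8 to 10 h (adjusted p = 0.183, over a range down to 6.69e-06) did not pass. At 24 h the treated libraries were at 195, 201 and 203 FPKM and the untreated 24 h libraries at 204, 206 and 216. These groups did not overlap, but the difference of -0.06 (95% interval -0.16 to 0.04) did not pass. A stretch of 50 bases shared with the pseudogene Tdgf1-ps1 begins at 12.5% of the positions of the Tdgf1 transcript, so reads there could be assigned to either gene.

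Acvr1b encodes ALK4, the type I receptor that phosphorylates Smad2 and Smad3. It lies on the plus strand at chr15:101174067-101213684 in 9 exons and contains the microRNA gene Mir6962 on the same strand. The untreated 0 h libraries were uneven, at 6.63, 6.25 and 3.38 FPKM, and the low one was replicate 3, which stood apart in its GC trend. At 4 h the level was 9.04, 9.66 and 10.3 FPKM and at 6 h it was 9.40, 9.10 and 9.88. Every treated library at these times was above every untreated 0 h library. The log2 change was 0.77 (SE 0.16, adjusted p = 0.000831) at 4 h and 0.75 (SE 0.16, adjusted p = 0.000662) at 6 h. Without untreated 0 h replicate 3 it was 0.52 and 0.49, which still passed. Both calls were lost when only the compared libraries entered the fit (adjusted p = 0.0974 and 0.0619, the highest of 40 alternatives, whose lowest were 9.22e-06 and 1.09e-05).

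By 8 h Acvr1b was at 7.61, 8.12 and 7.30 FPKM, again above all 3 untreated libraries. Its log2 change was 0.48 (SE 0.16, adjusted p = 0.0214). This call was lost in 5 of 40 alternatives, among them without untreated 0 h replicate 3 (0.22, adjusted p = 0.19) and without 8 h replicate 2 (0.44, adjusted p = 0.0713), with a range of adjusted p from 0.00553 to 0.213. The 10 h libraries (8.13, 7.26 and 5.57 FPKM) overlapped untreated 0 h cells, and the 24 h difference of 0.25 (95% interval -0.08 to 0.58) did not pass.

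Acvr2b, a type II activin receptor, is on the plus strand at chr9:119402118-119434995 in 11 exons, and the annotated gene Gm47320 overlaps it. It was the least abundant of the 7, with group means from 1.82 FPKM in untreated 24 h cells to 2.40 FPKM at 6 h. At 6 h its libraries were at 2.44, 2.28 and 2.48 FPKM, above the untreated 0 h libraries at 2.09, 2.20 and 1.57. The log2 change of 0.21 had an adjusted p of 0.136 and a 95% interval of -0.02 to 0.44. No comparison passed for this receptor.

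Foxh1, the forkhead factor that carries activated Smads to DNA, is on the minus strand at chr15:76668225-76669948 in 3 exons. Group means lay between 35.5 FPKM in treated 24 h cells and 42.6 FPKM at 10 h. In several groups a single library lay above the others. Replicates 1, 2 and 3 held 35.0, 38.9 and 47.0 FPKM in untreated 0 h cells, 52.2, 34.6 and 37.0 at 2 h, 38.8, 38.0 and 49.5 at 8 h and 42.1, 36.8 and 48.9 at 10 h. In each of these groups the highest Foxh1 value, and the lowest Acvr1b value, belongs to the library that stood apart in its GC trend. At 6 h the level was 34.9, 37.0 and 35.1 FPKM, with a log2 change of -0.16 (95% interval -0.43 to 0.11) against untreated 0 h cells. These libraries also lay below all 4 h libraries (40.1, 39.6 and 41.8 FPKM). That step of -0.18 did not pass (limma adjusted p = 0.376), but it did in 3 alternative settings, with adjusted p down to 0.00643.

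The antagonists Lefty1 and Lefty2 moved most. They lie beside each other on the plus strand of chromosome 1, Lefty2 at chr1:180893108-180899103 and Lefty1 at chr1:180935022-180938400, with 35918 bases between them and 4 exons each. Their coding sequences, both of 1104 bases, are identical at 1014 positions (91.8%). Runs of 50 bases shared with the other gene begin at 17.9% of the positions of the Lefty1 transcript and 11.6% of those of Lefty2, so part of the reads of each could have been counted for the other, and the summed level is given with the single ones below.

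Lefty1 was at 4.21, 3.43 and 5.79 FPKM in untreated 0 h replicates 1, 2 and 3. It was 2.74, 3.78 and 3.68 at 0.5 h and 3.92, 3.06 and 3.19 at 2 h. Both of these groups overlapped the untreated one. The level then was 0.994, 1.29 and 1.65 FPKM at 4 h and 0.804, 0.581 and 1.20 at 6 h, with all 6 libraries below every untreated library. The log2 change was -1.23 (SE 0.16, adjusted p = 3.91e-06) at 4 h and -1.55 (SE 0.16, adjusted p = 6.93e-08) at 6 h, where the mean FPKM was 0.192 of the untreated 0 h mean. The added pseudocount of 1 FPKM makes the fitted change smaller than the ratio of means at such levels.

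Lefty2 started at 7.51, 7.70 and 8.01 FPKM. It held 5.86, 5.95 and 6.90 FPKM at 2 h, 3.56, 3.85 and 3.74 at 4 h and 1.55, 2.26 and 2.14 at 6 h. Each of these groups was wholly below the one before, but the 0.5 h libraries (6.04, 7.42 and 7.59 FPKM) overlapped both the untreated 0 h and the 2 h libraries. At 2 h the change of -0.28 did not pass (adjusted p = 0.375), and it was -0.89 (SE 0.10, adjusted p = 8.76e-07) at 4 h and -1.56 (SE 0.10, adjusted p = 8.02e-11) at 6 h. Of the 8 embryonic stem cell markers, 3 were lower at 4 h (12.1% of all genes) and at 6 h (20% of all genes). Nanog was lower by 1.66 and 1.92 and Sox2 by 1.54 and 0.84 on the log2 scale, with Zfp42 the third. The other 5 did not pass at either time. At 10 h, when both Lefty genes were above the start, 5 of the 8 were lower (9.43% of all genes). Among them were Nanog (-0.55) and Sox2 (-0.52).

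Between 6 and 8 h both antagonists came back. Lefty1 was at 6.13, 6.04 and 7.23 FPKM at 8 h, above every untreated 0 h library, and Lefty2 was at 6.33, 6.93 and 7.89 FPKM, which overlapped its untreated 0 h libraries. The step from 6 to 8 h, where 3 of the 7 genes rose (18.1% of all genes) and none fell, was +2.01 (adjusted p = 9.66e-09) for Lefty1 and +1.44 (adjusted p = 3.44e-09) for Lefty2. Against untreated 0 h cells the 8 h change of Lefty1 was 0.47 (SE 0.16, adjusted p = 0.0232). It was lost in 7 of 40 alternatives, including without untreated 0 h replicate 1 (adjusted p = 0.0545), without untreated 0 h replicate 2 (adjusted p = 0.121) and without 8 h replicate 3 (adjusted p = 0.0842), was 0.29 with median-of-ratios scaling, and turned to -0.20 against both untreated groups together. Adjusted p-values over these alternatives ran from 0.000597 to 0.252. For Lefty2 the 8 h change was -0.12 (95% interval -0.34 to 0.09), and whether the 2 antagonists differed from each other at 8 h was not tested.

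Levels at 10 h were higher still. Lefty1 was at 13.1, 13.8 and 17.8 FPKM and Lefty2 at 20.4, 20.2 and 20.7. All of these libraries were above all untreated 0 h and 8 h libraries of the same gene. Against untreated 0 h cells the change was 1.55 (SE 0.16, adjusted p = 2.62e-07) for Lefty1 and 1.29 (SE 0.10, adjusted p = 7.6e-09) for Lefty2, with ratios of means of 3.33 and 2.63. The step from 8 to 10 h, in which 3 of the 7 genes rose (1.78% of all genes did), was +1.08 (adjusted p = 0.000269) and +1.41 (adjusted p = 4.4e-08). With only the compared libraries in the fit the Lefty1 step had an adjusted p of 0.082, the highest over its alternatives, whose lowest was 8.73e-06.

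**Figure D2:**
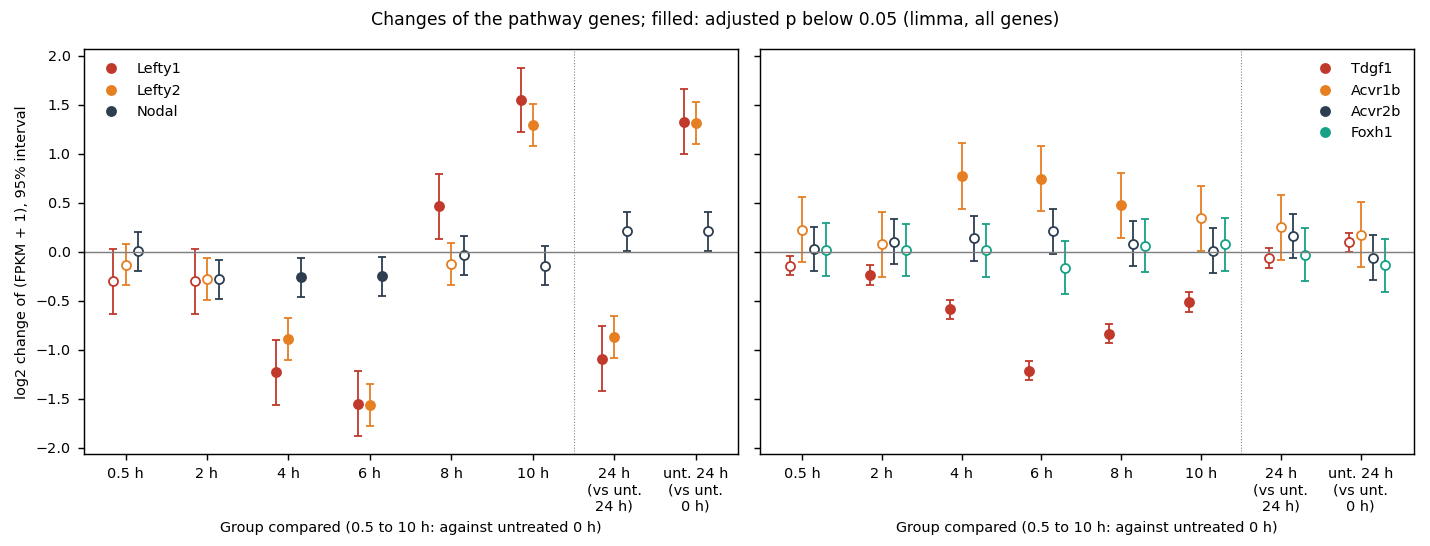
Fitted log2 change of FPKM + 1 with its 95% interval for the 7 genes in 8 comparisons. Filled points have a limma adjusted p below 0.05 over all genes and open points do not. Lefty1 and Lefty2 lie at -1.55 and -1.56 at 6 h and at 1.55 and 1.29 at 10 h, and right of the dotted line both are negative at 24 h and positive between the untreated groups.

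At 24 h the untreated comparison group had itself moved. Lefty1 was at 11.4, 11.9 and 14.5 FPKM and Lefty2 at 18.4, 20.9 and 23.3 in untreated 24 h cells, all above the untreated 0 h libraries. The change between the untreated groups was 1.33 (SE 0.16, adjusted p = 0.000118) for Lefty1 and 1.32 (SE 0.10, adjusted p = 3.31e-07) for Lefty2. The Lefty1 call was lost with only the compared libraries in the fit (adjusted p = 0.136, over a range down to 2.14e-06). The other 5 genes did not pass, with intervals of 0.01 to 0.41 for Nodal and 0.00 to 0.20 for Tdgf1. Of all 13614 genes tested, 96 passed between the untreated groups.

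Treated cells at 24 h held 5.01, 5.98 and 5.13 FPKM of Lefty1 and 11.5, 9.78 and 11.5 FPKM of Lefty2. Every treated library was below every untreated 24 h library of its gene. The difference was -1.09 (SE 0.16, adjusted p = 0.000121) for Lefty1 and -0.87 (SE 0.10, adjusted p = 1.19e-05) for Lefty2, and the treated means were 0.427 and 0.524 of the untreated 24 h means. Set beside untreated 0 h cells, the treated 24 h libraries of Lefty1 overlapped the range of 3.43 to 5.79 FPKM, and those of Lefty2 lay above the range of 7.51 to 8.01 FPKM. In all, 6 of the 7 genes did not overlap between the 24 h groups, where 53.5% of all genes tested did not. In the authors' deposited table both genes have small q-values at 24 h, 1.07e-18 with a log2 fold of -1.23 for Lefty1 and 8.71e-17 with -0.93 for Lefty2, and only Lefty1 carries the authors' mark of significance.

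The hepatocyte marker sum also differed at 24 h, being 42.0 to 56.2 FPKM in untreated and 1.37 to 1.95 in treated cells. At 10 h, with that sum at 1.33 to 2.00 FPKM, Lefty1 overlapped its untreated 24 h range. At 0.5 h, with a sum of 47.0 to 63.6 FPKM, it was 2.74 to 3.78 FPKM, and at 8 h it was 6.13 and 6.04 in the replicates with sums of 58.6 and 52.2 and 7.23 in the replicate with a sum of 2.08. The order was the other way at 6 h, where Lefty1 was 1.20 in the replicate with a sum of 45.7 and 0.804 and 0.581 in the others, and in untreated 0 h cells, where it was 5.79 in the replicate with a sum of 7.20 and 4.21 and 3.43 in the others. The summed trophectoderm markers also moved. They were at 28.6 to 30.6 FPKM in untreated 0 h cells, 20.2 to 22.1 at 4 h, 17.5 to 19.2 at 6 h, 28.6 to 31.7 at 8 h and 35.6 to 37.7 at 10 h. Like both Lefty genes, this sum lay below its untreated 0 h range at 4 and 6 h and above it at 10 h, but at 24 h it was higher in treated (41.7 to 47.3 FPKM) than in untreated cells (28.4 to 32.9), where the Lefty genes were lower. Of the 7 markers, 5 were tested. Of these 5, 3 were lower at 4 h (12.1% of all genes) and 4 at 6 h (20% of all genes). At 10 h 2 were higher (22.2% of all genes), as at 24 h (8.63% of all genes). Cdx2 and Gata3 had medians of 0.594 and 0.546 FPKM over libraries and maxima of 1.56 and 1.36. A marker at such levels could pass the filter only through the libraries in which it was high, so these marker counts are given as a description. Krt8 and Tfap2c had the highest medians over libraries (13.2 and 8.28 FPKM), Elf5 was listed at 0 in 11 libraries, and the list shares Eomes with the mesendoderm list. The part of these cells or genes in the Lefty results was not tested.

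Ordered by group mean, Lefty1 was highest at 10 h (14.9 ± 2.52 FPKM, SD, n = 3) and in untreated 24 h cells (12.6 ± 1.65), which overlapped. Treated cells followed at 8 h (6.47 ± 0.662) and, without overlap, at 24 h (5.37 ± 0.526), and the groups from there through untreated 0 h, 0.5 h (3.40 ± 0.575) and 2 h (3.39 ± 0.466) each overlapped the next. The 4 h (1.31 ± 0.33) and 6 h (0.861 ± 0.312) groups lay apart below and overlapped each other. For Lefty2 the order began with untreated 24 h (20.9 ± 2.45) and 10 h (20.4 ± 0.263), which overlapped, and then treated 24 h (10.9 ± 0.995). Below these came untreated 0 h, 8 h (7.05 ± 0.786), 0.5 h (7.02 ± 0.848) and 2 h (6.24 ± 0.579), each overlapping the next, and 4 h (3.72 ± 0.146) and 6 h (1.98 ± 0.381) lay apart.

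Summed, the antagonists amounted to 26.6 ± 1.95% (SD, n = 3) of the Nodal level in untreated 0 h cells. The share was 13.3 ± 1.57% at 4 h and 7.45 ± 1.62% at 6 h. It then was 30.3 ± 1.91% at 8 h and 85.2 ± 6.14% at 10 h. The 10 h libraries, at 79.5 to 91.7%, were above all others. Untreated 24 h cells were at 63.1 ± 7.31% and treated 24 h cells at 26.5 ± 0.601%, a range of 26.1 to 27.2% that lies inside the untreated 0 h range of 24.4 to 28.1%. These shares are ratios of mRNA levels and were not tested. Reads exchanged between Lefty1 and Lefty2 affect the sum less than the single genes.

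Within the pair, Lefty1 stood at 57.6 ± 13.9% of Lefty2 in untreated 0 h cells. The ratio was lowest at 4 h (35.2 ± 8.29%) and highest at 8 h (91.8 ± 4.8%). At 24 h it was 49.7 ± 9.85% in treated and 60.3 ± 3.09% in untreated cells. The Tdgf1 level was 4.27 ± 0.326 times that of Nodal in untreated 0 h cells, 2.18 ± 0.0961 times at 6 h and 3.25 ± 0.202 times in treated 24 h cells.

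**Figure D3:**
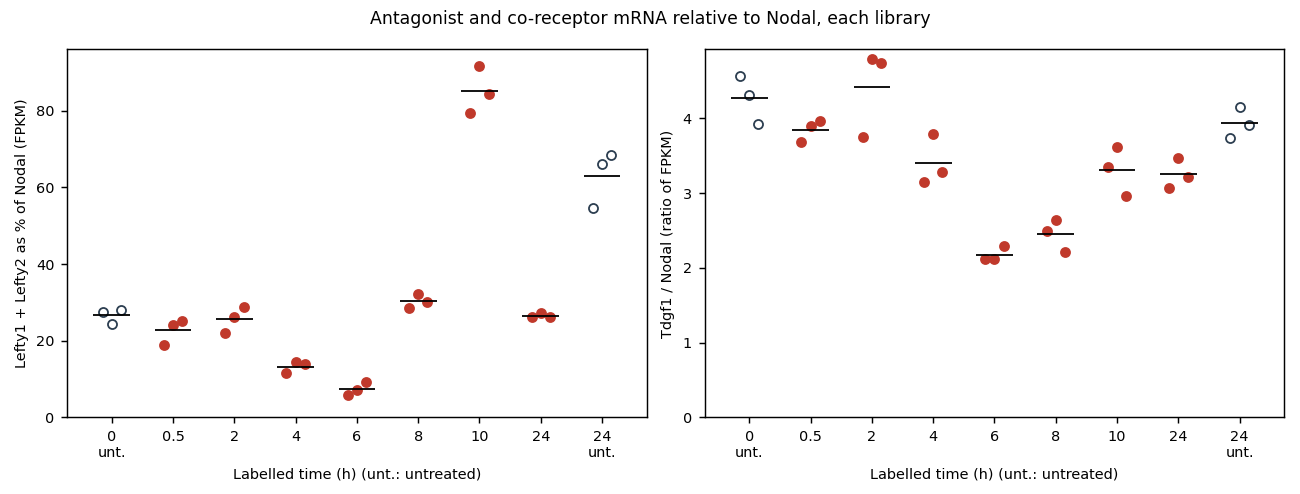
Left, the summed level of Lefty1 and Lefty2 as a percentage of the Nodal level, and right, the ratio of Tdgf1 to Nodal, both from FPKM in each library, by labelled time in hours. Open points are untreated and filled points treated libraries, and bars are means of 3. The left panel runs from a mean of 7.45% at 6 h to 85.2% at 10 h, and the right panel has its lowest mean, 2.18, at 6 h.

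The change at 24 h against untreated 24 h cells and that at 10 h against untreated 0 h cells were compared directly. Of the 7 genes, 2 had a lower change at 24 h (5.75% of all genes) and 1 a higher one (2.95% of all genes). The difference of changes was -2.64 (SE 0.22, adjusted p = 1.52e-07) for Lefty1, -2.16 (SE 0.14, adjusted p = 6.68e-09) for Lefty2 and 0.45 (SE 0.07, adjusted p = 0.00014) for Tdgf1. Because the control rose between 0 and 24 h for both Lefty genes, this difference contains the drift of the untreated cells as well as that of the treated ones. Treated cells alone fell between 10 and 24 h by 1.31 (adjusted p = 4.13e-06) for Lefty1 and by 0.85 (adjusted p = 4.22e-06) for Lefty2.

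Of the remaining steps between treated groups, none of the 7 genes passed from 0.5 to 2 h with limma, where 1.17% of all genes passed, and Nodal alone had an unadjusted p below 0.05 (13.2% of all genes). From 2 to 4 h, 3 were lower (9.89% of all genes) and 1 was higher (10.2% of all genes). Acvr1b rose by 0.70 (adjusted p = 0.00283) in that step, and Lefty1, Lefty2 and Tdgf1 fell by 0.93, 0.61 and 0.35. From 4 to 6 h, 2 were lower (8.48% of all genes), Lefty2 with -0.67 and Tdgf1 with -0.62, while the Lefty1 step of -0.32 had an adjusted p of 0.177.

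Across the 9 group means of log2(FPKM + 1), Lefty1 and Lefty2 had a Pearson correlation of 0.966 with each other. Lefty1 and Nodal had 0.486, Lefty1 and Tdgf1 0.476, and Lefty2 and Acvr2b -0.847. The 9 points are few and follow a time order, so these values only describe the profiles. The 3 genes most like Lefty1 among 13613 were Gm5134 (0.982), Txndc9 (0.977) and Wdsub1 (0.974), and those most like Lefty2 were Lefty1 itself, Txndc9 (0.96) and Wdsub1 (0.949). Tdgf1 was closest to Tubb4b-ps1 (0.99), Tyro3 (0.99) and Tubb4b (0.989), Acvr1b to Luc7l (0.977), Trim11 (0.974) and Gm15801 (0.97), and Nodal to Gm21936 (0.945), Gm16478 (0.931) and Gm14385 (0.929). Foxh1, closest to Fam89b (0.903), Arhgef25 (0.902) and Ppp2cb (0.891), and Acvr2b, closest to Gm47148 (0.958), Gm23964 (0.958) and Gm9791 (0.942), had nearly level profiles of their own. Of the genes named as closest, Gm14385, Fam89b, Gm47148 and Gm23964 had mean levels under 1 FPKM.

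A wider list of Nodal, activin and TGF-beta genes held 49 others, of which 30 were tested. Against untreated 0 h cells, 5 of the 30 were higher (14.2% of all genes) and 7 lower (12.1%) at 4 h. At 6 h, 9 were higher (22.3% of all genes) and 8 lower (20%). At 8 h, 12 were higher (29.2% of all genes) and 3 lower (11.6%), and at 10 h, 12 were higher (22.2%) and 4 lower (9.43%). Those last splits depend on scaling, as they do over all genes. With median-of-ratios scaling, which moved the median change of all genes from 0.11 to -0.05 at both times, they became 6 higher (19.2% of all genes) and 7 lower (20.5%) at 8 h, and 8 higher (12.8%) and 7 lower (18.5%) at 10 h. None was higher and 1 was lower at 0.5 h (0.0661% of all genes lower), and none was higher and 3 were lower at 2 h (0.566% of all genes lower). At 24 h, 5 were higher (8.63% of all genes) and 1 lower (4.28%), and with median-of-ratios scaling 2 were higher (6.66%) and 2 lower (7.18%). Without the 4 libraries that stood apart, 18 were higher and 2 lower at 24 h, and the shares over all genes also rose, to 33.1% higher and 18.2% lower. Between the untreated groups 0 of the 30 passed with limma and 2 had an unadjusted p below 0.05 (9.44% of all genes), against 3 higher (11.7% of all genes) and 6 lower (18.4%) without those 4 libraries. Of the 30 genes, 2, Tbxt and Wnt3, reached 1 FPKM in no untreated library and so entered the test, and these counts, only through treated groups in which they were high.

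Among the other ligands, Gdf3, which signals through the same receptors, was at 69.5, 71.9 and 83.0 FPKM in untreated 0 h cells and at 24.8, 23.7 and 25.7 at 6 h, a log2 change of -1.56 (adjusted p = 1.45e-12). It was still lower at 24 h (-0.37, adjusted p = 0.00352). Inhbb, the activin beta B subunit, was at 10.1, 10.6 and 6.58 FPKM before treatment and 2.27, 2.54 and 2.55 at 6 h (-1.53, adjusted p = 5.47e-10), and it did not pass at 24 h. The groups did not overlap for either ligand at 6 h. Tgfb1 and Furin, which encodes a proprotein convertase that cleaves Nodal, were higher at 10 h by 0.51 and 0.43. Both were near the filter limit of 1 FPKM. Mean levels in untreated 0 h cells and at 10 h were 0.84 and 1.63 FPKM for Tgfb1 and 1.14 and 1.86 for Furin. Tgfb1 reached 1 FPKM in 3 of 6 untreated and 9 of 21 treated libraries. Of the receptors and transducers, Tgfbr3 (betaglycan) was higher at 6 h by 0.69 and Smad3 by 0.84 (adjusted p = 6.94e-05). Tgfbr3 too was near the filter limit, with means of 0.89 FPKM in untreated 0 h cells and 2.03 at 6 h. It reached 1 FPKM in 2 of 6 untreated and 13 of 21 treated libraries. Smad3 was also higher at 24 h by 0.46 (adjusted p = 0.0409), a time at which fewer genes of the list were higher with median-of-ratios scaling, as given above.

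Among the other antagonists and feedback genes, Tgif1, a Smad corepressor, was at 24.6, 25.6 and 24.5 FPKM in untreated 0 h cells and 13.1, 13.6 and 13.0 at 4 h (-0.86, adjusted p = 2.25e-09). Bambi, a pseudoreceptor, fell by 0.62 at 4 h. Fst (follistatin, an activin-binding protein) went the other way, from 1.66, 1.35 and 1.23 FPKM to 3.43, 3.87 and 3.03 at 8 h (+0.88, adjusted p = 1.74e-08), and the ubiquitin ligase gene Smurf1 was higher at 6 h by 0.72. The inhibitory Smad gene Smad7, named here after its values were seen, was the only gene of the 30 that passed at 0.5 h (-0.44, adjusted p = 0.011), and it was lower at 2 h too (-0.68). Pmepa1, also named after its values were seen, was higher at 24 h by 0.23, a time at which Fst (+0.24, adjusted p = 0.0492) lost its call under median-of-ratios scaling (adjusted p = 0.129).

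Of 10 mesendoderm genes that the pathway regulates in the embryo, 3 were tested. Eomes, a T-box factor, was at 3.72, 3.83 and 2.73 FPKM before treatment, 0.596, 0.529 and 0.667 at 6 h (-1.46, adjusted p = 4.16e-11) and 6.13, 6.20 and 4.83 at 10 h (+0.61, adjusted p = 3.79e-05). None of these groups overlapped. Tbxt (Brachyury, under its older symbol T in the tables) was at 0.21, 0.373 and 0.217 FPKM before treatment and 2.12, 2.55 and 2.47 at 10 h, the only libraries in which it reached 1 FPKM. Wnt3, a Wnt ligand, was at 0.197, 0.299 and 0.245 FPKM before treatment, and it had its highest group at 6 h, with 2.77, 2.40 and 2.95. It reached 1 FPKM in 8 libraries, all treated. Since the filter admitted both genes through groups in which they were high, these values are given as a description with no test. At 24 h Eomes did not pass (0.01). Mean levels at 24 h were 0.436 FPKM in treated and 0.194 in untreated cells for Tbxt and 0.476 and 0.212 for Wnt3.

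**Figure D4:**
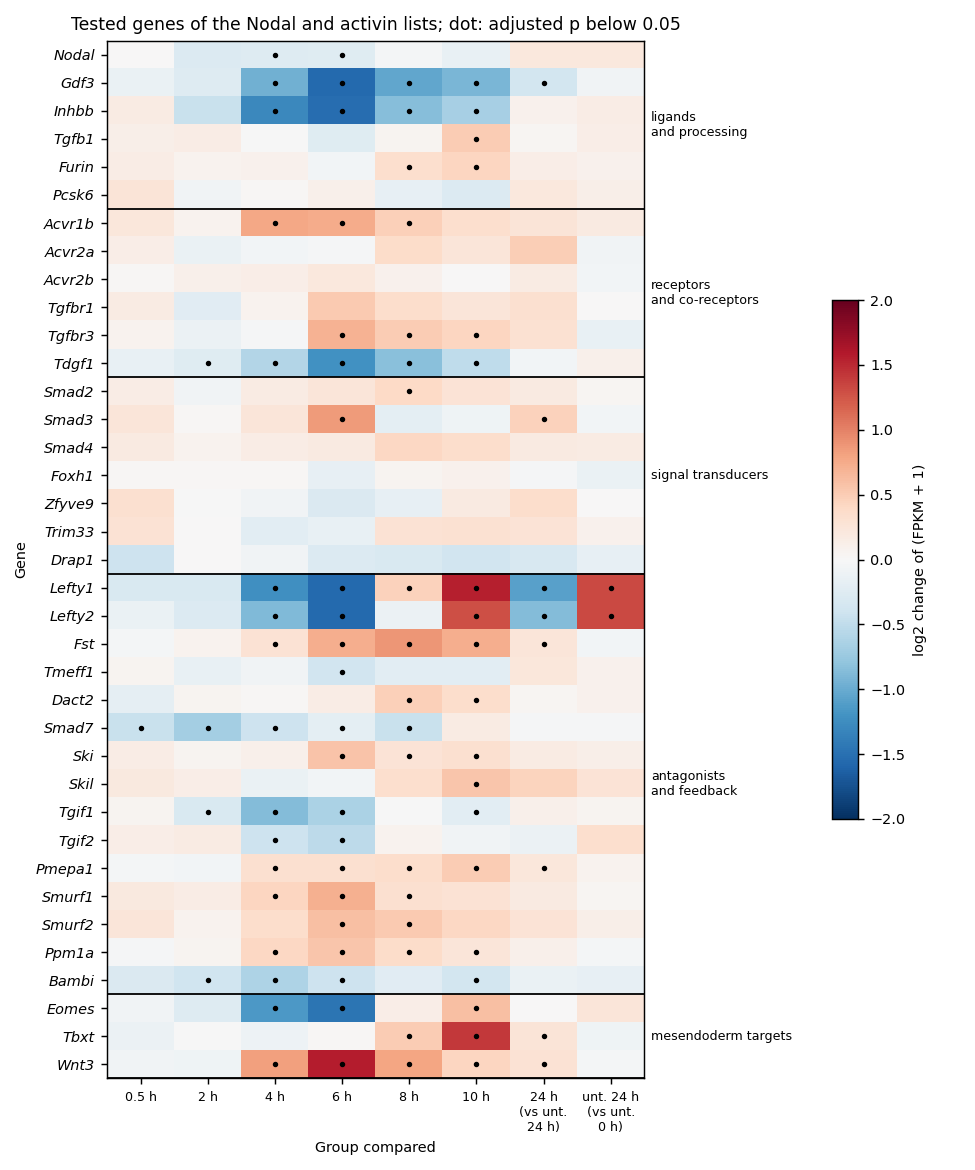
Log2 change of FPKM + 1 for the 37 tested genes of the pathway lists (rows, grouped by role) in 8 comparisons (columns), the first 6 against untreated 0 h cells. Blue is lower and red is higher, and a dot marks an adjusted p below 0.05. Tbxt and Wnt3 passed the filter only through treated groups in which they were high, so dots in their rows do not count as tests. Both Lefty rows are blue at 4, 6 and 24 h and red at 10 h and between the untreated groups, where no other row has a dot.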

How the data were processed

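The 7 genes and all gene lists were chosen with earlier results of these data known. Per the submitters' processing notes, HISAT2, StringTie, cutadapt, FastQC and edgeR were used with mm10. No source used here gives their versions or the strand setting of the counting. For 38352 genes, FPKM per library were deposited in 7 tables, which were joined by gene identifier. Their deposited log2 fold changes and their deposited p-values and q-values were quoted only where named. FPKM keeps no fragment totals, so depth was read only as relative depth. Here limma 3.58.1 (R 4.3.3) was fitted to log2(FPKM + 1) with 9 group means and a mean-variance trend over 27 libraries. It covered the 13614 genes that reached 1 FPKM in 3 libraries, with Benjamini-Hochberg adjustment within each comparison. The fit was also run on simulated data with independent noise for each gene and library. Those data held no library-wide trend such as that with GC content, so the run cannot show how such trends affect the calls. The 15 repeated untreated 0 h columns were identical, and 0 pairs of libraries were. The labels call replicates biological, from independent time courses. Deviations of same-numbered libraries correlated above 0.1 in every pair only for 8 h (0.464, 0.464 and 0.691) and 10 h (0.558, 0.566 and 0.797) against untreated 0 h. Besides the 7 genes, the text names up to 4 genes per list that passed with the largest absolute change at 4, 6, 10 or 24 h, the cell type markers and the 3 closest profiles. Other settings covered pseudocount, filter, scaling, trend, control group, libraries in the fit, replicate block, GC and length, and each library left out.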

Additional observations from a re-analysis of the deposited data

Results flagged for a closer look

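For 3 of the 7 genes, limma's test of the difference itself passed between the changes at 24 h and at 10 h. The 24 h change was taken against untreated 24 h cells and the 10 h change against untreated 0 h cells. The change at 24 h minus the change at 10 h was -2.64 on the log2 scale for Lefty1, -2.16 for Lefty2 and 0.45 for Tdgf1. Lefty1 and Lefty2 were above untreated 0 h cells in 3 of 3 libraries at 10 h and below untreated 24 h cells in 3 of 3 at 24 h. Tdgf1 was below the same groups in 3 of 3 at both times. Untreated cells themselves rose between 0 and 24 h, by 1.33 for Lefty1 and 1.32 for Lefty2, and the Lefty differences contain that drift. The 10 h libraries of both Lefty genes overlapped untreated 24 h cells. These 3 differences passed under each of the 39 alternatives run.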

How the results depend on the processing

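Of 40 single-gene calls, 28 held under every alternative run. With both untreated groups as control, 2 genes passed at 0.5 h and 4 at 2 h, Lefty1 at 8 h turned to -0.20 and Lefty2 at 24 h lost its call (-0.21, adjusted p = 0.0877, over a range down to 4.41e-07). With only the compared libraries, 0 passed at 2 h, 3 at 4 h, 3 at 6 h, 1 at 8 h, 4 at 24 h, 1 between the untreated groups and 1 from 8 to 10 h. Of all genes, 3 passed in that setting at 2 h, 1061 at 4 h, 2713 at 6 h and 1537 at 8 h. Between the untreated groups 12 of all genes passed, and from 8 to 10 h 2 did. With GC and length correction, 2 passed at 2 h, 4 at 24 h, 1 from 0.5 to 2 h and 5 from 6 to 8 h, and Foxh1 at 24 h turned to 0.19. With the replicate block and that correction, 2 passed at 2 h, 1 from 0.5 to 2 h and 5 from 6 to 8 h, and the replicate block alone changed no call of the 7 genes. Without the 4 libraries that stood apart, 2 passed at 2 h, where 0.646% of all genes were higher and 1.87% lower. At 24 h 4 passed, where 33.1% of all genes were higher and 18.2% lower. Without these 4 libraries 1 passed from 0.5 to 2 h and 4 from 4 to 6 h, and Foxh1 from 2 to 4 h turned to 0.18. Without these and untreated 24 h replicates 1 and 3, a setting chosen after seeing the data, 2 passed at 2 h, 1 from 0.5 to 2 h and 4 from 4 to 6 h, and Foxh1 from 2 to 4 h again was 0.18. Leaving out each library gave 0 to 2 genes at 2 h and counts within 1.5 times of the main ones elsewhere. Acvr2b was not tested at a filter of 5 FPKM. Over all genes, calls at 2 h ran from 3 to 703, at 24 h from 881 to 6987 and between the untreated groups from 12 to 4100. Where no cause is visible in a setting's construction, the cause was not tested. FPKM gives no fragment counts, so counting error cannot be stated, and single-library values under 1 FPKM are the least certain.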
